A study of Homo sapiens with 24 samples.

Results

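Ventral neural differentiation was followed in the 2 control lines of the human embryonic stem cell line H7, by comparing 6 libraries of day 14 with 6 libraries of day 0. These are the 12 of 24 libraries that carry a control genotype, chosen by their labels alone, and the other 12 come from lines knocked out for BRAT1 and enter no comparison given here. Day 0 cells were undifferentiated stem cells, and day 14 cells are called neural progenitors after ventral differentiation. Each day holds control line 1 and control line 2 with 3 biological replicates each, lettered A to C. All 12 libraries share the H7 background and the control genotype, and no knockout allele is named for them. Whether each control line is 1 clone, how the lines were derived, and which agents and doses drove the differentiation is not stated in the labels. Poly(A) RNA was sequenced by Click-Seq, a library method that joins the adapter to the complementary DNA by click chemistry instead of fragmentation and ligation. The comparison asks which genes changed as these stem cells became ventral neural progenitors.

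Human embryonic stem cells resemble the epiblast, an epithelium held in an undifferentiated state by the factors OCT4 (encoded by POU5F1), SOX2 and NANOG and by FGF and Nodal signals. Neural induction turns off that programme and brings up neuroepithelial genes such as PAX6, SOX1 and vimentin (VIM). Along the back-to-belly axis of the neural tube, Sonic hedgehog from the floor plate is bound by the receptor PTCH1, which releases the transducer SMO and activates the GLI factors. GLI factors then switch on ventral genes such as NKX2-2, NKX6-1, NKX6-2, OLIG2 and FOXA2, and also PTCH1, GLI1 and HHIP, which makes these last genes readouts of the pathway.

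The counts have to be read with the strand in mind. Where a noncoding feature lies over a coding gene and the pair holds 100 counts or more, the noncoding feature took the larger number in 1441 (66.7%) of 2160 pairs, at a median ratio of 4.02. Reads of a gene were therefore often counted under whatever feature lies on the other strand. In what follows, an opposite feature is one whose exons overlap exons of a gene on the other strand by at least 100 bases, with at least 90% of its overlap on that gene. Counts under a gene's own name may be reads of the other strand, and a change there is a change in counts under that name. TDGF1, the Nodal co-receptor of stem cells (GRCh38 chr3:46574534-46582463, plus strand), shows the pattern. LRRC2 (chr3:46515423-46580099, minus strand) shares 110 bases of exon with it. LRRC2 held 566 CPM (counts scaled to library size with TMM factors) in the lowest day 0 library, 605 at the median and 826 in the highest, and 0 in all 6 day 14 libraries. TDGF1 itself held only 0.911, 4.12 and 11.2 CPM at day 0 and 0 at day 14.

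An abundant locus whose counts fell holds the miR-302 cluster, microRNAs of pluripotent cells that share 1 seed, with miR-367 beside them under a seed of its own. Their 5 mature sequences are shown because counts under the host transcript of this cluster and under the feature opposite it both fell. They come from RefSeq (GRCh38.p14, chromosome 4, minus strand), run 5′ to 3′, and have the seed, bases 2 to 8, in capitals.
hsa-miR-302a-3p: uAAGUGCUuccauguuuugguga
hsa-miR-302b-3p: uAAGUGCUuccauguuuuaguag
hsa-miR-302c-3p: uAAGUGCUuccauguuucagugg
hsa-miR-302d-3p: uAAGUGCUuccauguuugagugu
hsa-miR-367-3p: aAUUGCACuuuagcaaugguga
The seed AAGUGCU is carried by 12 mature miRNAs of the RefSeq table and AUUGCAC by 7. The miRNAs were not measured here: the hairpin features MIR302A, MIR302B, MIR302C, MIR302D and MIR367 had 0 counts in all 12 libraries, which hold poly(A) RNA.

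MIR302CHG, the host transcript of the cluster (chr4:112646476-112650051, minus strand), lies inside LARP7 (chr4:112636964-112657592, plus strand) and shares 302 bases of exon with it. LARP7 encodes a protein that binds the small RNA 7SK. Since reads were often counted on the other strand, counts under LARP7 may be reads of the host transcript. Counts under MIR302CHG may likewise be reads of LARP7, and which RNA each feature holds was not tested. Counts under LARP7 were 2740 CPM in the lowest day 0 library, 12700 at the median and 22300 in the highest, and 0.934, 2.18 and 4.71 CPM at day 14. The groups were far apart, at -12.26 on the log2 scale (SE 0.71, adjusted p = 1.21e-09, edgeR quasi-likelihood test with Benjamini-Hochberg adjustment over all features tested). With counts summed per line LARP7 was not called (adjusted p = 0.102). Counts under MIR302CHG were 3560, 8900 and 15000 CPM at day 0 and 1550, 2360 and 2730 CPM at day 14. These counts fell by 2.03 on the log2 scale (SE 0.30, edgeR adjusted p = 3.59e-05), with no overlap between the days. The 250 bases before 1 of the 2 RefSeq starts of MIR302CHG (chr4:112650052-112650301, minus strand, GRCh38.p14) are shown because they hold the octamer ATGCAAAT, the motif bound by OCT factors, in capitals.
MIR302CHG promoter: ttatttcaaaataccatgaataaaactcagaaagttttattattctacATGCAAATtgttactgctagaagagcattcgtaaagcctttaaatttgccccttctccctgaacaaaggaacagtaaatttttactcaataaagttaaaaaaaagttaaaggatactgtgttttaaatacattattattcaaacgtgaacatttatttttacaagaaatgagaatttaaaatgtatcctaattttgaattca
The octamer lies 202 to 195 bases before the start, and on either strand it is found in 573 (1.63%) of 35116 promoter windows of this length. A match describes letters only.

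Libraries of the days differed in depth and spread. Totals ran from 1407832 to 2059467 counts at day 0 and from 2228736 to 3682807 at day 14, and 9299 to 15116 against 21309 to 25247 features had a count. Thinned to 1407832 counts each, the libraries still held 9078 to 14113 features at day 0 and 19765 to 22101 at day 14 (exact two-sided permutation test, p = 0.00216, n = 6 and 6, the smallest the design allows). The common coefficient of variation among replicates was 0.969 at day 0 and 0.252 at day 14. Line 1 C, line 2 B and line 2 C of day 0 had fewer than 11000 detected features and stand apart. Counts of a coding gene as a percent of those of the noncoding feature over it, summed over 788 pairs, were 5.95 ± 2.26% (SD, n = 6) at day 0 and 5.86 ± 0.333% (SD, n = 6) at day 14 (exact permutation p = 0.929). These pairs were chosen from the same counts, for at least 1000 under the noncoding feature and more there than under the coding gene. Low percents are thus in part set by that choice and are no rate over all pairs. The median over the pairs ran from 0.18 to 1.56% at day 0 and from 3.92 to 5.35% at day 14 (n = 6 and 6, exact permutation p = 0.00216). No label gives a preparation or sequencing batch, so a batch that went with the day and the day itself cannot be told apart. Nor can fewer cells of a type and less RNA per cell, in these bulk samples.

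**Figure D1:**
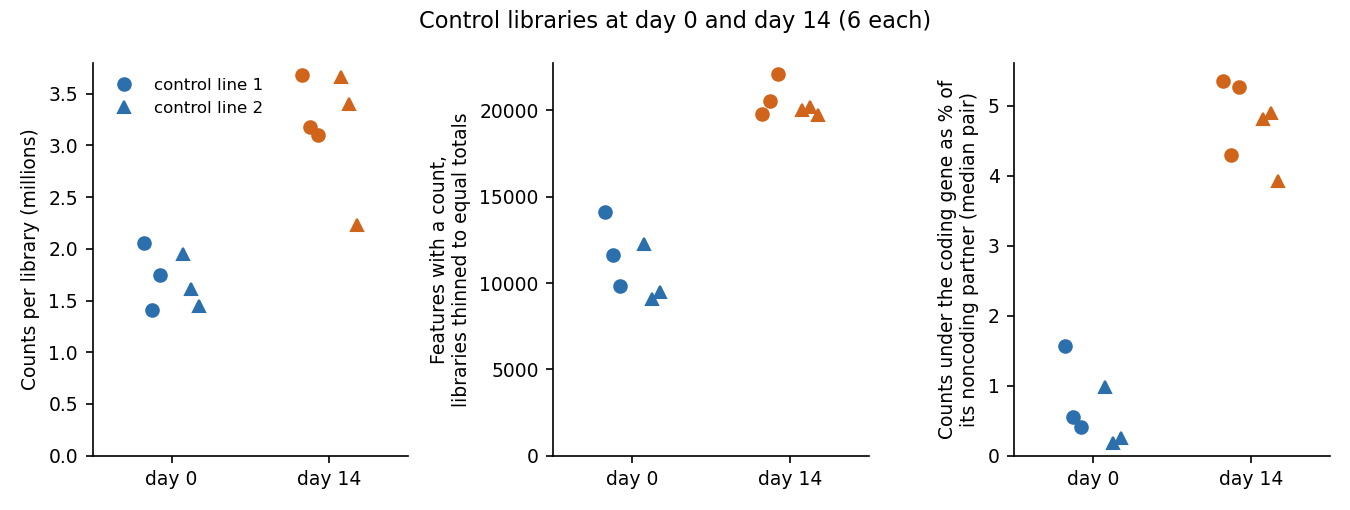
Total counts, features with a count after thinning every library to 1407832 counts, and the median percent of coding-gene counts relative to the noncoding feature over them, for each of the 12 control libraries (points). Totals were 1407832 to 2059467 at day 0 and 2228736 to 3682807 at day 14, and the thinned feature numbers do not overlap between the days.

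Of 7821 features that passed the filter on low counts, 3475 (44.4%) differed between the days at an adjusted p under 0.05 in edgeR. Of the tested features 27.3% (2134) were higher and 17.1% (1341) lower at day 14, and 2580 of those called had no overlap between the 6 libraries of each day. A fold of at least 2 was reached by 3141. A feature at 0 in all libraries of 1 day passed the filter only through the other day, so its direction was fixed. Of the tested features 164 were at 0 in all day 0 libraries and 6 in all day 14 libraries. The median log2 fold change over all tested features was 0.45 under TMM scaling and 0.59 under RLE scaling, so changes are read relative to that shift. Direction went with level. Under a mean of 10 CPM, 896 of 2423 features were higher and 24 lower, with a median of 1.36. At 200 CPM or more, 127 of 727 were higher and 408 lower, with a median of -0.69. Coding genes with nothing on the other strand, whose counts are mostly low, had 424 higher and 69 lower of 1115 and a median of 1.18. Noncoding features opposite a coding gene had 313 higher and 390 lower of 1520 and a median of -0.08. Coding genes with other overlap on the other strand had a median of 0.78, and coding genes opposite 1 coding gene, such as LRRC2, INPP5A and ELP4, a median of 0.03. A change under a gene's own name, or under a feature opposite it, is therefore read against the median of its class. Of the calls 61.4% were higher as reported. With all libraries thinned to 1407832 counts (6259 features tested) it was 56.5%, with a median of 0.34 over the tested features. Without the 3 sparse day 0 libraries (12125 tested) it was 65.9%, with a median of 0.60. Beyond these fits, which cover unlike sets of features, the part that depth, sparse day 0 libraries and wrong-strand reads have in these rises was not tested.

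**Figure D2:**
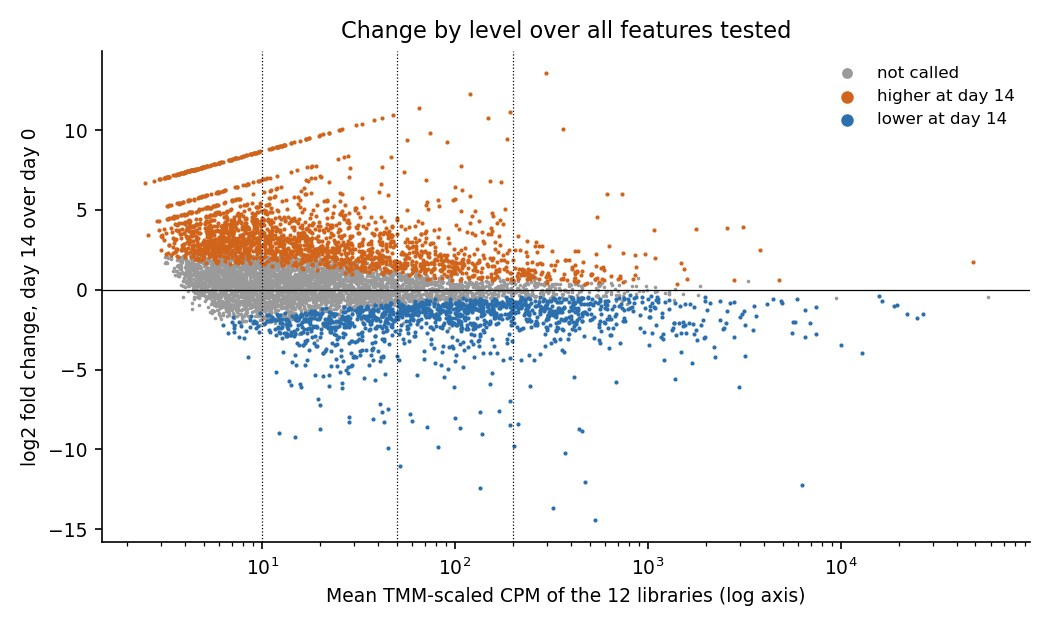
Log2 fold change, day 14 over day 0, against mean CPM on a log axis for the tested features, with dotted lines at 10, 50 and 200 CPM. Called features under 10 CPM are nearly all higher at day 14 (896 against 24 lower), and those of 200 CPM or more are mostly lower (408 against 127 higher), while the slanting rows of points at the upper left are features with 0 or few counts at day 0, whose plotted values depend on the prior count.

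Stem cell genes fell where reads are found opposite them. Of 34 pluripotency genes, 3 had an opposite feature that passed the filter, and all 3 fell, with a median of -8.63. The 1 at 0 in all day 14 libraries, LRRC2, could only be called lower. LRRC2, opposite TDGF1, was at least 4950-fold lower at day 14 against a floor of 3 counts over the group (edgeR adjusted p = 7.38e-11). TCF19 (chr6:31158542-31167159, plus strand) overlaps POU5F1 (chr6:31164337-31180731, minus strand) by 248 bases. Its level was 94.4, 131 and 221 CPM at day 0 and 0, 0 and 1.11 CPM at day 14, so that it fell by 8.63 (log2, SE 0.65, edgeR adjusted p = 2.49e-08), and -9.4 without day 14 line 1 C. POU5F1, the gene of OCT4, had 21.9, 39.7 and 95.2 CPM at day 0 and 0.525, 2.28 and 3.11 CPM at day 14 under its own name. It fell by 4.37 on the log2 scale (SE 0.57, edgeR adjusted p = 1.22e-05). The days do not overlap for any of these.

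NODAL, the ligand whose co-receptor is TDGF1, is read through ENSG00000280401. That feature had 28.6, 55.5 and 235 CPM at day 0 and 0, 0 and 0.726 CPM at day 14 (log2 fold change -8.31, edgeR adjusted p = 9.11e-07). The value was -7.69 without day 0 line 1 C and -9.04 without day 14 line 2 B. FOXH1, the factor that partners SMADs downstream of Nodal, lies opposite KIFC2, a kinesin gene. Counts under KIFC2 were 207, 255 and 368 CPM at day 0 and 0, 0 and 1.94 CPM at day 14, a fall of 9.01 (log2), and -10.04 without day 14 line 1 C. The features opposite TDGF1, NODAL and FOXH1 were thus present in every day 0 library and at or near 0 in every day 14 library. LRRC2 and ENSG00000280401 were the only 2 opposite features tested of the TGF-beta and BMP list, and 0 of 2 own names of that list were called.

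Under their own names 12 of the 34 pluripotency genes passed the filter, of which 5 fell and 2 rose, with a median of 0.52. L1TD1, an RNA-binding protein of stem cells, had 54.9, 89.3 and 116 CPM at day 0 and at most 0.778 CPM at day 14, a fall of 7.5 (log2, SE 0.51, edgeR adjusted p = 7.86e-09). ESRG, a noncoding RNA of stem cells, went from 11.8, 39.1 and 71.6 CPM to 0, 0 and 0.934 CPM (log2 fold change -6.82, and -7.52 without day 14 line 2 A). DNMT3B, a de novo DNA methyltransferase, had 4.84, 18.5 and 24.1 CPM at day 0 and 0.555, 3.05 and 4.6 CPM at day 14. It fell by 2.66 (log2, SE 0.65, edgeR adjusted p = 0.00326). This was the only call among the 4 tested genes of DNA methylation, and it was not passed in line 1 alone (adjusted p = 0.096) or line 2 alone (adjusted p = 0.0532). LIN28A, which blocks maturation of let-7 miRNAs, was 1 of the 2 that rose, with SALL4: 3.93, 12.8 and 26.3 CPM at day 0 and 34.2, 55.6 and 64.7 CPM at day 14 (log2 fold change 1.92, edgeR adjusted p = 0.0019).

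Some defining genes carry too few counts to place. NANOG had 0, 1.97 and 12.5 CPM at day 0 and 0, 0 and 0.555 CPM at day 14, 28.5-fold lower with a 95% counting interval of 8.88 to 145, and the days overlap. ZFP42, known as REX1, had 0, 1.48 and 10.9 CPM at day 0 and 1 count in all at day 14, 52.3-fold lower (8.32 to 2170), also with overlap. Neither passed the filter on low counts. SOX2, a factor of both stem cells and neural progenitors, had 1.85, 4.12 and 20.4 CPM at day 0 and 2.72, 8.25 and 15.6 CPM at day 14 (log2 fold change 0.08, SE 0.71, edgeR adjusted p = 0.937). LIN28B had 0, 1.95 and 13.6 CPM at day 0 and 4.44, 10.8 and 16.5 CPM at day 14 (log2 fold change 1.5, edgeR adjusted p = 0.129); without day 0 line 2 A, its highest day 0 library, the adjusted p was 0.0073. Counting intervals and floors cover counting error only.

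**Figure D3:**
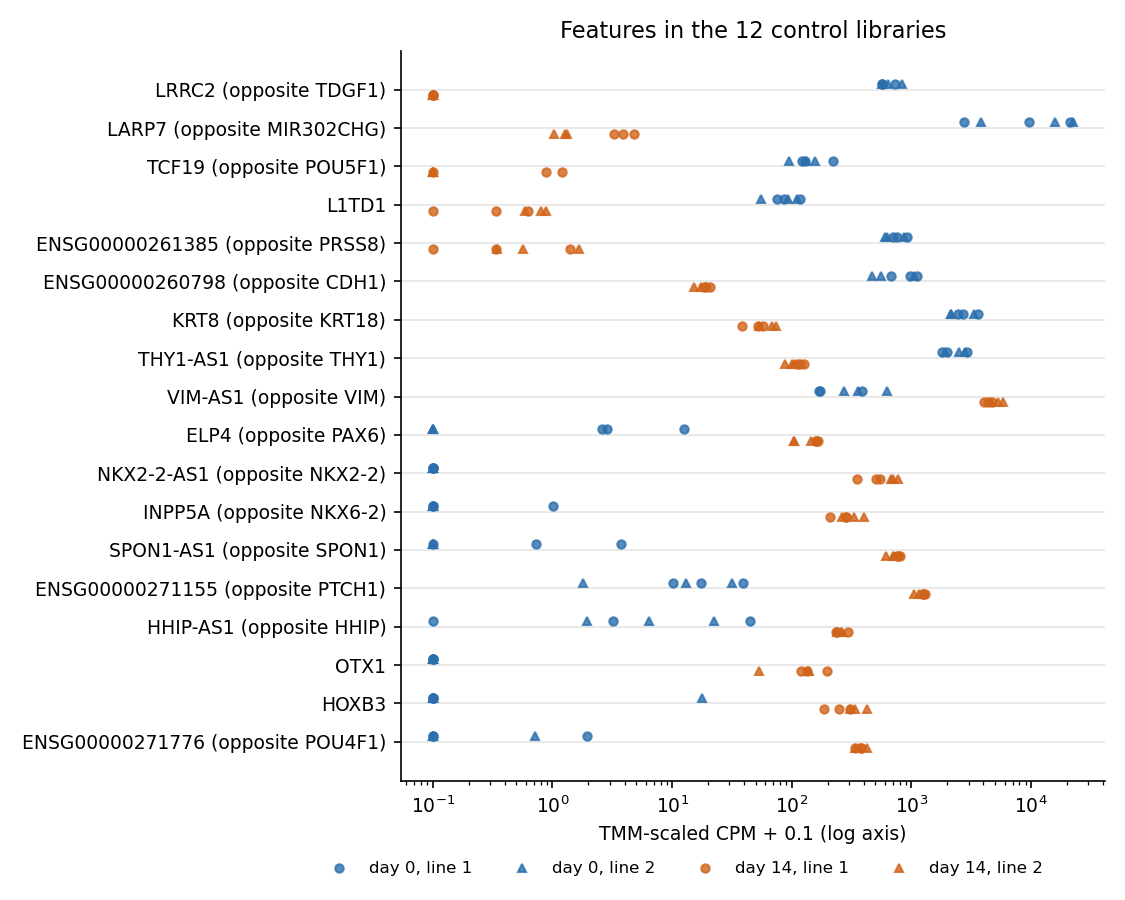
CPM of 18 features in each of the 12 control libraries, on a log axis of CPM plus 0.1 (added so that 0 can be drawn), with day 0 and day 14 libraries in separate colours. Features opposite stem cell and epithelial genes sit high at day 0 and near 0 at day 14, as for LRRC2 (566 to 826 against 0), and those opposite ventral genes the other way round, as for NKX2-2-AS1 (0 against 348 to 777).

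The 10 largest falls with a mean of at least 10 CPM and a gene symbol include LARP7, LRRC2, TCF19 and KIFC2 above. LTBR lies opposite SCNN1A, a subunit of the epithelial sodium channel, and had 652, 925 and 1070 CPM at day 0 and 0, 2.39 and 3.33 CPM at day 14 (log2 fold change -8.70). C13orf42 fell from 354, 821 and 1900 CPM to at most 0.726 CPM (log2 fold change -12.05, and -13.13 without day 14 line 2 B). Counts of LINC01194, a noncoding RNA, were 212, 394 and 616 CPM at day 0 and at most 1.05 CPM at day 14 (-9.82). For GLB1L3 they were 310, 349 and 539 CPM and at most 1.69 CPM (-8.45). CDKL4 was 1210-fold lower (95% counting interval 414 to 5890) and SCGB3A2 950-fold lower (169 to 37600). None of the last 5 has an exon of a single gene opposite it. In each of these 10 features all day 0 libraries were above all day 14 libraries.

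Epithelial genes fell with the stem cell genes. All 5 tested features opposite an epithelial gene were lower at day 14, with a median of -5.47. E-cadherin (CDH1), the adhesion protein of epithelia, is read through ENSG00000260798 (chr16:68814330-68823526, minus strand), which had 472, 826 and 1110 CPM at day 0 and 15.2, 18.6 and 20.5 CPM at day 14. This is a fall of 5.47 on the log2 scale (SE 0.25, edgeR adjusted p = 7.38e-11). PRSS8, a membrane protease of epithelia, is read through ENSG00000261385 (chr16:31131433-31131877, plus strand), at 606, 731 and 916 CPM and then 0, 0.355 and 1.56 CPM (-10.20, SE 0.42, edgeR adjusted p = 2.2e-11). KRT8 and KRT18 encode the paired keratins of simple epithelia and overlap each other, so each is the opposite feature of the other, and both are counted among the 5 and again among the own names. Counts under KRT8 were 2130, 2570 and 3590 CPM at day 0 and 38, 54.9 and 73.6 CPM at day 14 (-5.58, SE 0.22). KRT18 had 10.2, 33.4 and 52.8 CPM and then 0, 1.07 and 2.57 CPM (-4.73).

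Under their own names 3 of 8 tested epithelial genes fell and 2 rose, with a median of 0.75. SPINT1, an inhibitor of epithelial proteases, fell from 72.2, 94.5 and 242 CPM to at most 1.21 CPM (log2 fold change -8.22, and -9.11 without day 14 line 2 B). The 2 that rose, ESRP2 and RAB25, do so at low counts. ESRP2, an epithelial splicing factor with NFATC3 opposite it, had at most 1.24 CPM at day 0 and 4.72, 7.35 and 13.5 CPM at day 14 (log2 fold change 4.04, edgeR adjusted p = 0.000331). THY1 (CD90), a surface protein of stem cells as well as of mesenchyme, is read through THY1-AS1. That feature had 1800, 2240 and 2910 CPM at day 0 and 87.5, 107 and 126 CPM at day 14, a fall of 4.43 (log2, SE 0.18, edgeR adjusted p = 1.33e-11).

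Neural progenitor genes rose. Of 11 tested features opposite 10 of the 32 progenitor genes, 9 were higher and 0 lower, with a median of 3.93, and of 16 tested under their own names 11 were higher and 0 lower, with a median of 2.83. Among them 1 opposite feature and 5 own names were at 0 in all day 0 libraries and could only be called higher. VIM (chr10:17228259-17237593, plus strand), the intermediate filament of neuroepithelium, has a pair of features opposite it. VIM-AS1 held 168, 317 and 626 CPM at day 0 and 4020, 4690 and 5780 CPM at day 14 (log2 fold change 3.86, SE 0.29, edgeR adjusted p = 2.46e-08). ENSG00000234961, over another part of the gene, went from 223, 296 and 614 CPM to 5450, 5660 and 7000 CPM (3.93). These are changes of abundant features, where most called features were lower. VIM itself had 0.692, 1.98 and 10.2 CPM and then 82.1, 144 and 171 CPM (5.31).

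PAX6, the factor that defines human neuroectoderm, lies opposite ELP4, a subunit of Elongator. Counts under ELP4 were 0, 1.24 and 12.5 CPM at day 0 and 105, 152 and 166 CPM at day 14 (log2 fold change 5.52, SE 0.71, edgeR adjusted p = 1.04e-05), and those under PAX6 1.38, 8.87 and 21.2 CPM and then 59.8, 71.7 and 85.2 CPM (3.03). No day 0 library reached the lowest day 14 library for either. Without day 0 line 1 C, its highest day 0 library, the value of ELP4 was 7.02. NR2F1 (COUP-TFI), an orphan nuclear receptor of the neural plate, and the feature opposite it, NR2F1-AS1, were both near 0 at day 0. NR2F1 had 0 in all 6 day 0 libraries and 83.9, 88.5 and 112 CPM at day 14, at least 258-fold higher. NR2F1-AS1 was 1230-fold higher (95% counting interval 221 to 48700), at 122, 143 and 215 CPM at day 14.

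Of the tested progenitor features not called, SOX2-OT (log2 fold change -2.01), SOX4 (-1.2), SOX11 (-0.06) and SUMF1, opposite LRRN1 (-0.57), had values below 0. MEIS2, a homeobox cofactor, was at 0 in all day 0 libraries and had 25.5, 46.4 and 61.2 CPM at day 14, at least 120-fold higher. DACH1, a factor of neural rosettes, had 8.5, 11.2 and 18.0 CPM at day 0 and 53.7, 77.0 and 96.7 CPM at day 14 (log2 fold change 2.63). POU3F4, a POU factor of the neural tube, is read through ENSG00000279437, named here after its values were seen, at 0, 7.56 and 24.7 CPM and then 223, 230 and 263 CPM (4.61). NES, encoding nestin, did not pass the threshold: 21.6, 35.0 and 107 CPM at day 0 and 51.3, 90.5 and 153 CPM at day 14 (log2 fold change 0.92, SE 0.38, edgeR adjusted p = 0.0602). Without day 0 line 2 B it passed (adjusted p = 0.00692), as it did without day 0 line 1 C (adjusted p = 0.0495) or day 14 line 2 C (adjusted p = 0.0423). SOX1, a neuroectoderm factor with nothing opposite, had 0 at day 0 and 0.555, 3.19 and 6.13 CPM at day 14, at least 8.84-fold higher, and was too low to test.

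Notch genes keep neural progenitors dividing by signals between neighbours. All 4 Notch genes tested under their own names were higher, of 19 in the list, with a median of 5 when folds against an empty group are held at their floor. Of the 4, 2 were at 0 in all day 0 libraries and could only be called higher. The other 2, DLL1 and NOTCH1, had 3 and 4 counts over the 6 day 0 libraries, so a fall could hardly have been called. Over all tested features 27.3% were higher. HES5, the repressor that Notch switches on in neural progenitors, was at 0 in day 0 libraries and at 6.22, 19 and 26.6 CPM at day 14, at least 50.6-fold higher. DLL1, a Notch ligand, was 22.0-fold higher (95% counting interval 7.42 to 108) and NOTCH1, a receptor, went from at most 1.70 CPM to 5.61, 9.17 and 15.5 CPM (log2 fold change 4.17, and 4.89 without day 0 line 2 C). DLK1, a non-canonical ligand from an imprinted locus, had 0 and then 31.9, 43.7 and 54.9 CPM, at least 123-fold higher. Whether their levels at day 0 are 0 or below the depth of these libraries is not detectable here.

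Features opposite ventral genes went from at or near 0 to high levels. Of 25 ventral genes, 6 had an opposite feature that passed the filter, and all 6 were higher at day 14, with a median of 8.10 when folds against an empty group are held at their floor. Of the 6, 3 were at 0 in all day 0 libraries. These passed the filter only through day 14 and could only be called higher. NKX2-2, the factor of the progenitors next to the floor plate (chr20:21511010-21514026, minus strand), lies opposite NKX2-2-AS1 (chr20:21511447-21512309, plus strand), with 638 bases of exon shared. NKX2-2-AS1 had 0 counts in all 6 day 0 libraries and 348, 607 and 777 CPM at day 14, at least 1610-fold higher (edgeR adjusted p = 1.41e-09). NKX2-2 itself had 1.94, 6.65 and 7.94 CPM at day 14, 24.9-fold higher (95% counting interval 6.76 to 207), and was too low to test.

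NKX6-2, a ventral progenitor factor (chr10:132783179-132786052, minus strand), lies over the end of INPP5A, a phosphatase gene (chr10:132537820-132783480, plus strand), by 302 bases. Counts under INPP5A were 0 in 5 day 0 libraries, 0.911 CPM in line 1 B, and 208, 284 and 400 CPM at day 14, 2450-fold higher (95% counting interval 440 to 96900, edgeR adjusted p = 4.91e-11). NKX6-2 under its own name did not pass, at 0, 9.09 and 23.0 CPM and then 9.18, 17.2 and 19.8 CPM (log2 fold change 0.69, edgeR adjusted p = 0.424). SPON1, which encodes the floor plate protein F-spondin, lies opposite SPON1-AS1 (chr11:14262846-14273691, minus strand). That feature had 0, 0 and 3.64 CPM at day 0 and 610, 731 and 795 CPM at day 14, which is 10.09 higher on the log2 scale (SE 0.49, edgeR adjusted p = 1.22e-10), and 11.86 without day 0 line 1 B. All day 14 libraries of both lines were high for these 3 features, and all day 0 libraries were at or near 0.

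ENSG00000229533, opposite FERD3L, a floor plate bHLH factor, is named after its values were seen. It was at 0 in all 6 day 0 libraries and at 10.4, 14.3 and 20.1 CPM at day 14, at least 39.7-fold higher (edgeR adjusted p = 5.44e-05).

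Under their own names 4 ventral genes were tested and 2 rose. FOXA2, a floor plate factor, had 0 in all day 0 libraries and 4.44, 7.98 and 15 CPM at day 14, at least 23.7-fold higher (edgeR adjusted p = 0.000106). SLIT1, a midline guidance ligand, had 0 and then 4.28, 14.1 and 19.1 CPM, at least 38.5-fold higher. Most of the other defining ventral genes were low. OLIG2, of motor neuron progenitors, had 0 at day 0 and 0.778, 2.13 and 3.54 CPM at day 14, at least 5.81-fold higher. NKX6-1 had 0 and then 0.389, 1.16 and 2.80 CPM, at least 3.99-fold higher. NKX2-1, of the ventral forebrain, had 0 in all day 0 libraries and in 2 of the 6 day 14 libraries, with a highest value of 1.94 CPM. SHH, the ligand itself, had a highest value of 1.70 CPM at day 0 and 1.57 CPM at day 14, a ratio of 1.82 (95% counting interval 0.387 to 17.0), a difference not detectable at this depth.

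**Figure D4:**
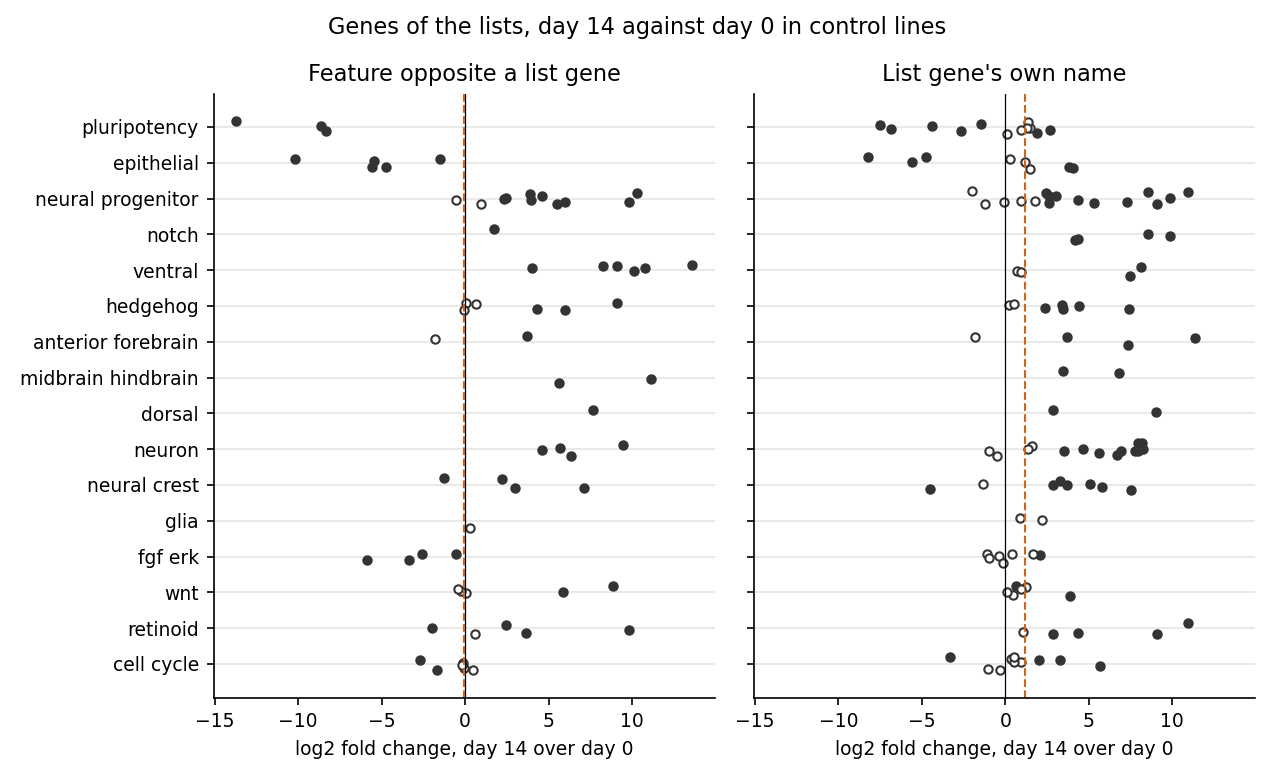
Log2 fold change, day 14 over day 0, of each tested member of 16 gene lists, on the left for features opposite a member and on the right for members under their own names. Filled points are called features, and the dashed line is the median of noncoding features opposite a coding gene on the left (-0.08) and of coding genes with nothing opposite on the right (1.18), though members of other classes are drawn too. Values of members at 0 in 1 group depend on the prior count. The 6 ventral opposite features all lie above the line and the 3 pluripotency and 5 epithelial ones all below it. Of the 6 ventral ones 3 were at 0 in all day 0 libraries and could only be called higher.

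Hedgehog readouts rose. The feature opposite PTCH1 (chr9:95442980-95517057, minus strand), ENSG00000271155 (chr9:95506235-95507636, plus strand, 711 bases shared), had 1.70, 15.1 and 39.2 CPM at day 0 and 1050, 1240 and 1300 CPM at day 14. The rise on the log2 scale was 5.99 (SE 0.44, edgeR adjusted p = 2.07e-08), and the lowest day 14 library lay far above the highest of day 0. PTCH1, the receptor and pathway target, had 0, 0.346 and 9.32 CPM under its own name and then 31.1, 52.4 and 66.3 CPM (4.41, edgeR adjusted p = 0.000393, and 5.82 without day 0 line 1 A). The 250 bases before 1 of the 5 RefSeq starts of PTCH1 (chr9:95509267-95509516, minus strand, GRCh38.p14) are shown because they hold the GLI motif GACCACCCA, here on the other strand as TGGGTGGTC, in capitals.
PTCH1 promoter: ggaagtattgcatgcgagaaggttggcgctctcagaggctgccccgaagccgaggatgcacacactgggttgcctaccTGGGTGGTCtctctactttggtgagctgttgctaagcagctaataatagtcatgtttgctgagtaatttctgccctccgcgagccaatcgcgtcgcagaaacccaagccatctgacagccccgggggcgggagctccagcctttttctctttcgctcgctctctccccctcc
The motif lies 172 to 164 bases before the start, and either strand of it occurs in 70 (0.199%) of 35116 windows of this length. A match is a description of letters and no evidence of binding.

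HHIP, a decoy that binds the ligand, lies opposite HHIP-AS1, which had 0, 4.70 and 44.3 CPM at day 0 and 233, 247 and 295 CPM at day 14 (log2 fold change 4.29, edgeR adjusted p = 6.84e-05, and 5.29 without day 0 line 1 C). Of 6 tested features opposite 5 hedgehog genes 3 were higher and 0 lower, with a median of 2.46. The 3 lie opposite PTCH1 and HHIP, since HHIP-AS1 and ENSG00000273621 are both opposite HHIP. ENSG00000273621 was at 0 in all day 0 libraries and could only be called higher. The features opposite SMO (0.63), CDON (0.03) and CCND1 (-0.08) were not called. Of 7 own names 5 were higher and 0 lower, with a median of 3.38. Over all tested features 27.3% were higher. BOC, a co-receptor that shares 513 bases of exon with CFAP44 on the other strand, was 237-fold higher (95% counting interval 42.4 to 9380), at 18.4, 28.6 and 37.3 CPM at day 14. MYCN, a proliferation target with 98 bases of exon shared on the other strand, had 0, 2.21 and 15.4 CPM and then 28.8, 57.0 and 75.4 CPM (3.38, edgeR adjusted p = 0.00182, and 4.17 without day 0 line 2 A). GLI1, the target used most as a readout, had 0, 1.67 and 14.6 CPM at day 0 and 8.56, 18.1 and 38.2 CPM at day 14, and the days overlap. Its log2 fold change of 2.38 (SE 0.88, edgeR adjusted p = 0.0366) lost its call without any 1 of 8 libraries. They are day 0 line 1 A (adjusted p = 0.0881), line 2 B (0.0523) and line 2 C (0.0541), and day 14 line 1 A (0.09), line 1 B (0.0537), line 1 C (0.054), line 2 A (0.0725) and line 2 B (0.0597). Without day 0 line 1 B, the value of GLI1 was 3.25 (edgeR adjusted p = 0.00917).

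Along the head-to-tail axis, genes of several levels rose side by side. Of 28 midbrain and hindbrain genes, 24 were at 0 in all day 0 libraries. The 2 own names and 2 opposite features that passed the filter were all higher at day 14. Each of them had few or 0 counts in most day 0 libraries, so a fall could hardly have been called. HOXB3, a hindbrain Hox gene, shares 374 bases of exon with a gene on the other strand, whose reads it may hold. HOXB3 had 17.8 CPM in day 0 line 2 C, 0 in the other 5 day 0 libraries and 185, 307 and 424 CPM at day 14 (log2 fold change 6.78, SE 0.85, edgeR adjusted p = 8.27e-06). It was not called with counts summed per line (adjusted p = 0.142), and without day 0 line 2 C the value was 12.67, which depends on the prior count because the day 0 group is then empty. PAX8, of the midbrain-hindbrain boundary, is read through PAX8-AS1, which had 303, 394 and 441 CPM at day 14 and was 3220-fold higher (95% counting interval 579 to 127000). IRX1, a hindbrain and midbrain homeobox factor, is read through ENSG00000259603, at 0.786, 1.62 and 13.7 CPM and then 115, 163 and 225 CPM (5.62, edgeR adjusted p = 7.01e-07, and 6.71 without day 0 line 1 B). For these 3 the days do not overlap. EN2, of the midbrain-hindbrain boundary, had 26.7 CPM in day 0 line 2 B, 0 in the other 5, and then 28.6, 49.9 and 61.0 CPM (3.45, edgeR adjusted p = 0.0159), and it was not called in line 2 alone (adjusted p = 0.388), with counts summed per line (0.277), with no filter (0.0894) or by DESeq2 (0.0661). Without day 0 line 2 B the day 0 group of EN2 is empty and its value, 10.01, depends on the prior count.

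Of 4 forebrain genes tested under their own names 3 were higher and 0 lower. Among the 4, 2 were at 0 in all day 0 libraries and could only be called higher. OTX1, a homeobox factor of forebrain and midbrain, was at 0 in all day 0 libraries and at 53.3, 135 and 195 CPM at day 14, at least 371-fold higher (edgeR adjusted p = 1.54e-07). EMX2, of the dorsal forebrain and with EMX2OS opposite it, was at least 21.7-fold higher, at 5.44, 7.57 and 10.8 CPM. FEZF1, a forebrain zinc finger factor, had at most 3.93 CPM at day 0 and 4.36, 9.79 and 16.7 CPM at day 14 (log2 fold change 3.71, and 5.69 without day 0 line 2 B). The feature opposite it, FEZF1-AS1, did not pass, with 3.46, 7.16 and 152 CPM and then 10.6, 14.1 and 17.1 CPM (-1.83, edgeR adjusted p = 0.0905). It passed, as a fall, without day 0 line 1 A (adjusted p = 0.0488), line 1 C (0.0413) or line 2 A (0.0448). Of the dorsal genes, ZIC4, a zinc finger factor with 268 bases of exon shared on the other strand, was at least 70.0-fold higher at 17.9, 24.8 and 34.6 CPM. ENSG00000270100, opposite the roof plate ligand GDF7, was at least 26.6-fold higher at 6.60, 10.1 and 13.3 CPM.

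Genes of neurons rose from a low or empty day 0. All 4 tested features, opposite 3 neuronal genes, were higher, with a median of 6.01. Of these, ENSG00000271776, opposite POU4F1, and ENSG00000275327, opposite EBF3, had 4 and 3 counts over the day 0 libraries. A fall could hardly have been called for them. Under own names 10 of 14 tested were higher and 0 lower, with a median of 4.35 at the floor. Over all tested features 27.3% were higher. Among the 14 own names 7 were at 0 in all day 0 libraries and could only be called higher. POU4F1 (BRN3A), a sensory neuron factor, is read through ENSG00000271776, which had 0, 0 and 1.86 CPM at day 0 and 336, 372 and 426 CPM at day 14 (log2 fold change 9.46, SE 0.45, edgeR adjusted p = 8.94e-11, and 10.81 without day 0 line 1 A). NCAM1-AS1, opposite the neural cell adhesion gene NCAM1, had 1.70, 8.05 and 31.7 CPM and then 244, 294 and 382 CPM (4.61). EBF3-AS1, named for the neuronal differentiation factor EBF3, was at 0 and then at 44.8, 61.1 and 93.7 CPM, at least 175-fold higher.

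Own names of several neurogenic factors had no counts at day 0 and low levels at day 14. NHLH1 was at least 39.6-fold higher, NEUROD1 at least 29-fold, EBF1 at least 32.3-fold and ONECUT2 at least 16.2-fold. ELAVL3, an RNA-binding protein of neurons, was at least 41.2-fold higher and TAGLN3, a neuronal actin-binding protein, at least 33.6-fold, both named after their values were seen. Each of these 6 had 0 counts in all 6 day 0 libraries, and their highest day 14 values ran from 6.56 CPM for ONECUT2 to 25.4 CPM for ELAVL3. The 4 tested own names that were not called were KIF5C, NCAM1 (log2 fold change 1.57), DCX (-0.5) and the bHLH factor NHLH2 (-1.0).

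Most tested neural crest genes rose. Of 8 own names 6 were higher and 1 lower, with a median of 3.49, while ERBB3 (log2 fold change -1.32) was not called. Of 4 features opposite 3 crest genes 3 were higher and 1 lower, with a median of 2.60. Among them ENSG00000279036 and NGFR-AS1 both lie opposite NGFR. SOX10, which marks migrating crest and its glia, shares 89 bases of exon with a gene on the other strand. SOX10 had 9.25 CPM in day 0 line 2 A, 0 in the other 5, and 41.6, 64.6 and 66.1 CPM at day 14 (log2 fold change 5.09, edgeR adjusted p = 0.000264), and was not called in line 2 alone (adjusted p = 0.0723). Without day 0 line 2 A the day 0 group of SOX10 is empty and its value, 10.29, depends on the prior count. TFAP2B, a crest factor, was at least 24.7-fold higher, and TFAP2A-AS2, opposite TFAP2A, 191-fold higher (95% counting interval 34.1 to 7560). The own name that fell was FOXD3, a factor of stem cells as well as of crest, which had 9.69, 30.3 and 41.7 CPM and then 0, 0.977 and 3.30 CPM (-4.50, edgeR adjusted p = 0.000195, and -5.14 without day 14 line 1 A). FOXD3-AS1, opposite it, fell by 1.27 (log2, edgeR adjusted p = 0.00793), and was not called in line 1 alone (adjusted p = 0.124) or line 2 alone (adjusted p = 0.0768).

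The 9 endothelial genes summed to 0 to 4.35 CPM at day 0 and 8.17 to 11.7 CPM at day 14, and the 12 surface ectoderm genes to 0 to 8.70 and 1.94 to 9.98 CPM, with no member tested. The 20 mesendoderm genes summed to 0 to 18.2 CPM at day 0 and 4.67 to 10.8 CPM at day 14, 14 of them at 0 in all day 0 libraries and 5 in all day 14 libraries. HAND2-AS1, opposite the mesodermal and crest factor HAND2, was the 1 tested feature of that list: 10.9, 22.6 and 101 CPM and then 2.18, 6.73 and 23.6 CPM, with overlap. It fell by 1.88 (log2, edgeR adjusted p = 0.0343), and lost this call without day 0 line 1 A (adjusted p = 0.133) or day 14 line 1 A (0.0775), line 1 B (0.0684), line 2 B (0.0728) or line 2 C (0.0746). Of 13 glial genes 2 were tested and 0 called, and the list summed to 5.55 to 58.3 CPM at day 0 and 61.0 to 84.9 CPM at day 14. Of mesenchymal genes, 0 of 2 own names were called, and of 4 opposite features ACTA2-AS1, opposite the smooth muscle actin gene, was higher and THY1-AS1 and CLMAT3 lower. The mesenchymal opposite features, most of whose day 0 counts are of THY1-AS1, summed to 1910 to 3030 CPM at day 0 and 258 to 354 CPM at day 14. ACTA2-AS1 had 1.7, 29.7 and 47.9 CPM at day 0 and 104, 129 and 159 CPM at day 14. The part that other cell types have in the results was not tested. CSPG4 (NG2), of glial precursors, had 0, 1.24 and 25.5 CPM and then 23.8, 26.8 and 30.3 CPM (2.22, edgeR adjusted p = 0.0554), and passed without day 0 line 1 B, its highest day 0 library (adjusted p = 0.0026).

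Among the 10 largest rises of the named features, those not yet given are ZEB2, OR7E101P and PALM. ZEB2, a zinc finger factor of neural and crest development with ZEB2-AS1 opposite it, was at 0 and then at 61.4, 76.7 and 89.5 CPM, at least 212-fold higher. OR7E101P, an olfactory receptor pseudogene opposite the noncoding gene LINC01198, was at least 228-fold higher. As a member of a large family of near-identical copies it may share reads with others, and its count is uncertain. PALM, encoding the membrane protein paralemmin, was at 0 and then at 17.9, 52.6 and 68.7 CPM, at least 142-fold higher.

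Features opposite genes of FGF signalling, which holds human stem cells undifferentiated, fell. All 4 that were tested of the FGF and ERK list were lower, with a median of -2.96, and under own names 1 of 7, ETV4, was higher, a call lost in 15 of 24 alternatives (highest adjusted p 0.345). IER3-AS1, opposite the immediate early gene IER3, had 240, 271 and 388 CPM at day 0 and 3.05, 4.41 and 10.5 CPM at day 14 (log2 fold change -5.89, SE 0.33, edgeR adjusted p = 6.96e-10). FGF2, the ligand used to maintain these cells, lies opposite NUDT6, at 173, 328 and 597 CPM and then 26.9, 31.3 and 42.8 CPM (-3.35, edgeR adjusted p = 9.65e-08). DUSP6, an ERK phosphatase and feedback gene, is read through ENSG00000274021, at 720, 915 and 1390 CPM and then 127, 175 and 197 CPM (-2.56, edgeR adjusted p = 2.43e-08). The days do not overlap for these 3.

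Wnt loci gave few calls and retinoid loci more. LEF1, a Wnt effector, is read through LEF1-AS1, at 0, 4.52 and 7.46 CPM at day 0 and 191, 242 and 261 CPM at day 14 (log2 fold change 5.87, SE 0.46, edgeR adjusted p = 4.27e-08). Of 5 Wnt opposite features tested 2 were higher and 0 lower, with a median of 0.08, and of 6 own names 2, FZD4 and DKK3, were higher. That is near the background: of all tested features 27.3% were higher, and of coding genes with nothing opposite 38%. DKK3 lost its call in 6 of 26 alternatives (highest adjusted p 0.98). CRABP1, which binds retinoic acid in the cell, is read through ENSG00000279694, which was already abundant at 773, 1200 and 1570 CPM and had 4260, 6400 and 8620 CPM at day 14 (2.46, SE 0.21, edgeR adjusted p = 1.19e-07). STRA6, the retinol importer, had 0, 4.81 and 13.4 CPM and then 29.6, 44.0 and 52.8 CPM (2.84). Of 5 retinoid opposite features 3 were higher and 1, ALDH1A3-AS1, was lower, and of 5 own names 4 were higher and 0 lower. Of those that rose, CRABP1, NR2F1, NR2F2, ENSG00000279694 and NR2F1-AS1 are also counted among the progenitor genes above. NR2F1 and NR2F2 were at 0 in all day 0 libraries and could only be called higher.

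Cell cycle, metabolic and imprinted genes moved less uniformly. CCNA2, encoding cyclin A2, and EXOSC9, an exosome subunit that overlaps it on the other strand, both fell. CCNA2 had 662, 1210 and 2320 CPM at day 0 and 92.9, 113 and 196 CPM at day 14 (log2 fold change -3.33, SE 0.32, edgeR adjusted p = 4.45e-07). EXOSC9 had 495, 581 and 835 CPM and then 127, 192 and 233 CPM (-1.66). With reads of both strands assigned across the pair, which gene's RNA changed cannot be told apart. Of 10 tested cell cycle genes 3 were higher and 1 lower under own names, with a median of 0.54, and of 6 opposite features 0 were higher and 2 lower, with a median of -0.15. Over all tested features 27.3% were higher and 17.1% lower.

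Of 17 tested glycolysis and hypoxia genes 5 were higher and 1 lower under own names, with a median of 1.12. That is near the background: 27.3% of all tested features were higher, with a median of 0.45. The median was 1.18 for coding genes with nothing opposite and 0.78 for those with other overlap. ENO1, a glycolytic enzyme, had 46.7, 60.5 and 76.5 CPM and then 176, 318 and 416 CPM (log2 fold change 2.33), and PKM 7.65, 39.7 and 59.7 CPM and then 74.7, 111 and 156 CPM (1.67). PDK1, which holds pyruvate back from mitochondria, fell from 17.8, 103 and 137 CPM to 10.6, 13.5 and 15.7 CPM (-2.78, edgeR adjusted p = 4.07e-05). GAPDH, the abundant glycolytic enzyme, is read through ENSG00000269968, at 17800, 19000 and 27000 CPM and then 10700, 12000 and 15200 CPM. That fall of 0.70 (log2, SE 0.13, edgeR adjusted p = 0.000378) was not passed in line 2 alone (adjusted p = 0.0713) or against a fold of 2.

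All 15 genes of the mitochondrial genome were tested, and 2 were higher and 3 lower, with a median of 0.02. No opposite feature was found for any of them, so which strand their counts come from was not tested. MT-CO1, a subunit of cytochrome oxidase, went from 443, 685 and 909 CPM to 1410, 2300 and 2940 CPM (log2 fold change 1.70, edgeR adjusted p = 6.68e-06). MT-CYB, of complex III, fell from 3780, 9830 and 15100 CPM to 3150, 3780 and 4460 CPM (-1.30, edgeR adjusted p = 0.0011), with overlap. Imprinted genes, expressed from 1 parental copy, had 5 of 8 tested higher and 0 lower, where 27.3% of all tested features were higher. DLK1, counted above among the Notch genes, and MEG3 were at 0 in all day 0 libraries and could only be called higher. GNAS, a G protein subunit that shares 1127 bases of exon with GNAS-AS1 on the other strand, had 2.73, 8.59 and 33.0 CPM and then 123, 222 and 334 CPM (4.19, edgeR adjusted p = 1.86e-06). PEG10, a retrotransposon-derived gene, had 1.57, 4.12 and 8.70 CPM and then 23.3, 49.1 and 61.2 CPM (3.22). SGCE, which shares 219 bases of exon with PEG10 on the other strand, had a mean of 781 CPM and was not called (-0.07). Which RNA each of the pair holds was not tested. MEG3, a noncoding RNA of the DLK1 locus, was at least 15.4-fold higher.

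Of 9 features opposite 8 stress genes 5 were lower and 1 higher, with a median of -0.77. ENSG00000264324 and SLC4A5, both among the falls, lie opposite the same gene, MTHFD2. Of all tested features 17.1% were lower, and of noncoding features opposite a coding gene 25.7%. By level, 34.7% were lower at 50 to 200 CPM and 56.1% at 200 CPM or more. MTHFD2, a mitochondrial folate enzyme, is read through ENSG00000264324, at 321, 584 and 691 CPM and then 67.0, 110 and 154 CPM (log2 fold change -2.33, edgeR adjusted p = 6.78e-07). Counts under MTHFD2 itself went the other way, from 0, 1.97 and 13.6 CPM to 24.1, 31.6 and 43.9 CPM (3.25, edgeR adjusted p = 0.00208), and it is the 1 own name of 6 tested stress genes that was called. The 1 that rose was NR4A1AS, opposite the immediate early gene NR4A1, at 39.9, 58.2 and 108 CPM and then 128, 168 and 200 CPM (1.35, edgeR adjusted p = 0.000316). TALAM1, the feature antisense to the nuclear noncoding RNA MALAT1, had 17500, 22400 and 26100 CPM at day 0 and 49700, 75500 and 96200 CPM at day 14. It rose by 1.76 on the log2 scale (SE 0.16, edgeR adjusted p = 1.91e-07). ENSG00000206028, opposite the neural noncoding RNA MIAT, went from 53.7, 98.5 and 302 CPM to 1750, 2050 and 2150 CPM (3.73, edgeR adjusted p = 1.27e-06). Both are among the abundant features, and neither has days that overlap. Of 7 abundant noncoding RNAs tested under their own names 3 were higher and 2 lower, and of 7 clustered protocadherins PCDHA2 was higher and PCDHA10 lower.

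Because 3 day 0 libraries were sparse, the list counts were repeated without line 1 C, line 2 B and line 2 C of day 0, a choice made after seeing the data. More features then passed the filter (12125), and 6010 were called, 3961 of them higher and 2049 lower. As reported, 2134 were higher and 1341 lower of 7821. List counts are read beside this rise over all features, and features at 0 at day 0 again could only be called higher. Opposite features then gave 0 higher and 3 lower of 3 for pluripotency, 0 and 5 of 5 for epithelium, 10 and 1 of 12 for progenitors, 7 and 0 of 7 for ventral genes, 3 and 1 of 7 for hedgehog, and 4 and 0 of 5 for neurons. Wnt opposite features became 2 higher and 2 lower of 5. Own-name counts grew to 18 higher and 1 lower of 27 for progenitors, 8 and 0 of 10 for ventral genes, 11 and 0 of 11 for midbrain and hindbrain, 9 and 0 of 13 for hedgehog and 15 and 1 of 22 for neurons. The mitochondrial genes became 2 higher and 9 lower of 15.

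The direction of change was shared by the 2 control lines. Of the 3475 called features, 3474 had the same direction in both lines, which is in part fixed, since they were chosen by a fit that pools the lines. Over the 3439 with a value in each line fitted alone, 3438 had the same sign, and Pearson's r of the log2 fold changes was 0.868 across features, which are not independent replicates and share the scaling and filter. Fitted alone, line 1 kept 2254 of the 3466 calls it could test and line 2 kept 1781 of 3448. The line by day interaction, which asks whether the change differs between the lines, gave 0 (0%) of 7821 features by edgeR, with 581 at an unadjusted p under 0.05 and 35 calls by DESeq2.

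The 5 symbols with the smallest interaction p are AIDA, KLF2P1, DENND1A, ALG1L12P and ADI1. DENND1A lies opposite CRB2, a polarity gene of the neuroepithelium, and was at 0, 0.692 and 13.1 CPM at day 0 and 260, 347 and 407 CPM at day 14, a rise of 6.74 (log2, edgeR adjusted p = 5.91e-07), and 8.39 without day 0 line 1 A. All 3 of its day 0 libraries of line 2 were at 0, with a mean of 6.03 CPM in line 1, so the interaction of 7.41 (log2, edgeR adjusted p = 0.415, DESeq2 adjusted p = 0.029) rests on an empty group. AIDA, KLF2P1 and ALG1L12P were also at 0 in the 3 day 0 libraries of line 2, with edgeR adjusted p of 0.271, 0.271 and 0.419. ADI1 had a mean of 5.74 CPM in line 1 and 419 CPM in line 2 at day 0 (interaction -6.37, edgeR adjusted p = 0.419). Among called features, all 3 day 0 libraries were at 0 in line 1 but not line 2 for 114, and in line 2 but not line 1 for 239.

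**Figure D5:**
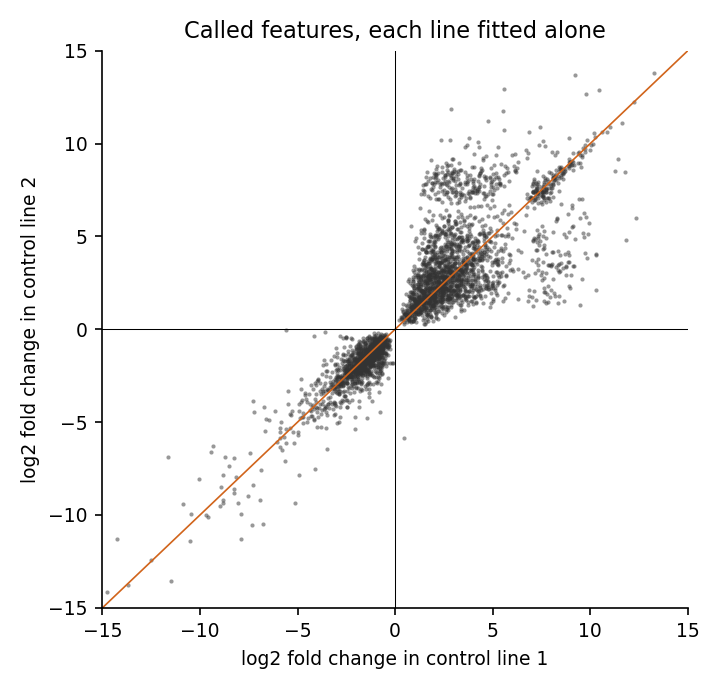
Log2 fold change, day 14 over day 0, in control line 1 (x axis) and control line 2 (y axis), each fitted alone, for the called features with a value in both (points). Of 3439 features 3438 lie at the lower left or the upper right, with the same sign in both lines, with Pearson's r of 0.868 across features.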

How the data were processed

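The authors deposited 1 table of raw counts per library, with a value for each feature, made with bcl2fastq 2.20.0, STAR 2.7.9a, GRCh38 and featureCounts of Subread 2.0.1, per the submitters' processing notes, which also name DESeq2 1.34.0 and R 3.5.1. The annotation release and strand setting were not given in the sources used here. Names of 57000 of 61248 features were found in GENCODE 29 (GRCh38), and these hold 90.74% of control counts, with a single gene opposite 8224 of them.

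Day was tested with edgeR 4.0.16 in R 4.3.3 (TMM, filterByExpr, robust quasi-likelihood fit, Benjamini-Hochberg, called under 0.05) on the 12 control libraries. Replicates are called biological in the labels, and both lines derive from H7, so p-values measure the spread between these samples. No pair of the 66 held identical counts. Folds against an empty group use a floor of 3 counts over the group, and groups of 1 to 3 counts get a 95% exact counting interval. Totals were 1407832 to 3682807 counts. The test was also run on simulated counts with the same spread on both days. The real spread differed between the days (coefficient of variation 0.969 and 0.252), so that run cannot check the test for these libraries.

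Named features were 22 anchors, features opposite an anchor, the 10 largest rises and falls with a mean of at least 10 CPM and a symbol, up to 4 own-name and 3 opposite features with the smallest p from each of 28 lists of 583 genes, and 5 for the line by day interaction. Some features that meet the rule, or count in a list, are not reported here. Members, lists and the rule were chosen with earlier results of these data known. There were 26 alternatives, among them DESeq2 1.42.0, other filters and scalings, blocks, each line alone and 12 fits that leave out 1 library. Promoters and miRNAs are from RefSeq tables of GRCh38.p14.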

Additional observations from a re-analysis of the deposited data

Results flagged for a closer look

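In 35 of 238 groups of 6 libraries, the highest or lowest library lay apart from the other 5, its gap to the nearest, as a share of the group's range, being above Dixon's critical value at 95%. Chance alone marks about 1 in 20 groups of well-measured values, and that rate does not hold for sparse counts: in 13 of these groups the other 5 libraries were at 0, which always sets the sixth apart, even at 1 count. Of the 35, 24 were day 0 groups and 11 day 14 groups, and the cause was not tested.

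At day 0 the library apart was the highest in every group. Line 1 A was the highest for PAX8-AS1 and TFAP2A-AS2 (0.622 CPM each), ENSG00000271776 opposite POU4F1 (1.86 CPM) and DENND1A (13.1 CPM). Line 1 B was the highest for INPP5A (0.911 CPM), SPON1-AS1 (3.64 CPM), ENSG00000259603 opposite IRX1 (13.7 CPM), CSPG4 (25.5 CPM) and ZFP42 (10.9 CPM). Line 1 C was the highest for ELP4 opposite PAX6 (12.5 CPM, against 2.73 in the next), ENSG00000280401 opposite NODAL (235 CPM, against 101) and SPINT1 (242 CPM, against 134). Line 2 A was the highest for NR2F1-AS1 and BOC (0.617 CPM each), DLL1 (1.85 CPM), SOX10 (9.25 CPM, the other 5 at 0), LIN28B (13.6 CPM) and ENSG00000269968 opposite GAPDH (27000 CPM, against 20600). Line 2 B was the highest for NKX2-2 (1.57 CPM), FEZF1 (3.93 CPM) and EN2 (26.7 CPM, the other 5 at 0). Line 2 C was the highest for HOXB3 (17.8 CPM, the other 5 at 0), SHH (1.70 CPM) and FOXD3-AS1 (229 CPM, against 115).

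At day 14, line 2 C was the highest for ENSG00000234961 opposite VIM (7000 CPM, against 5880), ENSG00000279437 opposite POU3F4 (263 CPM) and IER3-AS1 (10.5 CPM), and the lowest for PEG10 (23.3 CPM, against 47.4). Line 2 B was the highest for NR2F1-AS1 (215 CPM, against 149) and C13orf42 (0.726 CPM). Line 1 A was the highest for MEG3 (9.67 CPM), line 1 B for SHH (1.57 CPM), and line 1 C for NKX2-1 (1.94 CPM, against 0.726), SCGB3A2 and ZFP42 (0.277 CPM each).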

How the results depend on the processing

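Calls of day 14 against day 0 numbered 3190 to 4122 when 1 library was left out (1924 to 2660 higher, 1246 to 1573 lower). They were 7369 with DESeq2 (5599 higher), 7266 with no filter on low counts (4766 higher, 2500 lower), 2113 against a fold of 2 (666 lower), 2140 in line 2 alone (1405 higher, 735 lower) and 6010 without the 3 sparse day 0 libraries, an alternative chosen after seeing the data (3961 higher, 2049 lower). Of the calls 61.4% were higher as reported, 66.2% under RLE scaling and 57.0% without features above 1% of counts. Counts summed per line, which compare 2 sums a day and test 15378 features, gave 48.7%, and DESeq2, which tests 19095, gave 76.0%. Replicate letters did not pair the libraries, with correlations of same-lettered deviations from -0.0102 to 0.0185, and the replicate block gave 3482 calls, 2428 of them higher.

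Of 99 called features whose values are given, 79 kept their call and direction in all 26 alternatives that gave a value, 20 lost it in at least 1, and 0 reversed. Calls were lost with counts summed per line (among them DENND1A, DLL1, ELP4, ESRP2, FEZF1, HOXB3, LARP7 and NOTCH1) and in line 2 alone (among them DLL1, FEZF1, LIN28A, MT-CYB, MYCN, NR4A1AS, PKM and SOX10). Features not called turned sign: SOX2, 0.08 as reported, was -0.92 in line 2 alone, -0.07 without features above 1% and -0.17 to 0.57 without 1 library. NKX6-2, 0.69 as reported, was -0.10 in line 1 alone and -0.03 without the 3 sparse libraries, and FEZF1-AS1, -1.83, was 0.02 under the replicate block. Line by day calls were 0 to 1 without 1 library, 48 with no filter and 35 with DESeq2. The wrong-strand difference of -0.0917 percentage points ran from -0.588 to 0.408 without 1 library and was 4.10 for the median over pairs. The cause of these shifts was not tested.

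Depth at day 0, at most 2059467 counts, limits what a 0 there shows.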
